A study of Mus musculus with 15 samples.

Results

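The genes described here encode the machinery that senses broken or crosslinked DNA and repairs it by homologous recombination and the Fanconi anemia pathway. They were chosen by symbol from the gene name column of the deposited count tables, without regard to measured values. All 39 symbols were found among the 56967 gene names used, and all 39 were among the 19051 genes with enough counts to be tested. By role they are 5 damage kinases and their activator, 7 genes of break sensing, end resection and unwinding, 4 chromatin mediators, 5 BRCA proteins and partners, 8 genes of strand exchange and 10 Fanconi genes.

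The labels describe 15 libraries in 5 groups of 3, all from the established breast carcinoma line MDA-MB-468. The hairpins were brought in by transfection per the labels. The control group, NC, received a control hairpin, the groups shSHCBP1_1 and shSHCBP1_2 a short hairpin RNA against SHCBP1, and 2 further groups one against TMEM45A. The shTMEM45A groups are called set 4 and set 2 after their column numbers. All cells were grown in the same medium with serum, and the labels name no DNA-damaging agent. Whether a group's 3 libraries stem from separate cultures is not stated, and p-values therefore cover the spread among libraries alone, possibly a technical one. NC and shSHCBP1 share one table and shTMEM45A stands alone in the other. Wherever shTMEM45A is set against NC, the target and the table cannot be told apart. All 4 comparisons with NC share the same 3 control libraries.

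A double-strand break is held by the MRE11, RAD50 and NBN complex, which activates the kinase ATM. Nucleases then cut the ends back to single strands, on which ATR signals through CHEK1. BRCA1 with BARD1, and BRCA2 brought by PALB2, load the recombinase on these strands, and the recombinase then pairs them with an intact copy. At crosslinks that stall replication, a ubiquitin ligase built from Fanconi proteins, with FANCL as its catalytic subunit, marks the FANCD2 and FANCI pair, which is the central step of that pathway. Many of these genes are most active in cells in S and G2 phase. Inherited loss of BRCA1, BRCA2 or PALB2 predisposes to breast cancer.

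The libraries held from 13780294 to 16484000 counts, and levels are given as CPM, counts relative to the scaled library size. SHCBP1 stood at 44.1 ± 2.53 CPM in NC (mean ± SD, n = 3), 47.1 ± 1.25 in shSHCBP1_1 and 44.3 ± 1.12 in shSHCBP1_2, so it was not lower in the libraries labelled shSHCBP1. TMEM45A stood at 26.6 ± 2.09 CPM in NC, 17.8 ± 1.86 in set 4 and 19.4 ± 0.761 in set 2. Of 14 markers of the labelled line 7 had enough counts to be tested, and the basal keratins KRT5, KRT6A, KRT6B and KRT16 were at 0 in every library. The keratins KRT14 and KRT17 of that list stood at means of 0.162 and 0.116 CPM in NC. KRT17 stood at 2.24 in set 4 and 1.13 in set 2. The summed level of these 14 markers was 248.4 to 253 CPM in NC, 258.8 to 276.2 in the shSHCBP1 libraries and 396.3 to 438.6 in the shTMEM45A libraries. Its members did not share a direction: KRT8 stood at a mean of 79.3 CPM in NC, 168 in set 4 and 163 in set 2 and KRT18 at 44.55, 144 and 157, whereas CDH1 stood at 12, 7.91 and 7.16, EGFR at 16.3, 8.25 and 9.08 and FOXC1 at 93.7, 87.7 and 69.1. All 6 of 6 markers of an embryonic kidney line were tested, and their sum was 488.4 to 501.9 CPM in NC, 396 to 469.2 in shSHCBP1 and 190.3 to 240.6 in shTMEM45A. NEFM (254.5 CPM in NC, 105.5 in set 4, 73.8 in set 2) and NEFL (176, 67.5 and 55.9) make up most of it, while INA stood at 42.7 CPM in NC, 59.4 in shSHCBP1_1, 58.5 in shSHCBP1_2, 39.1 in set 4 and 50.7 in set 2. The sum of 4 fibroblast markers was 45.99 to 49.14 CPM in NC and 29.47 to 34.64 in shTMEM45A, almost all of it COL1A1. That of 4 immune markers was 4.97 to 5.83 CPM in NC and 7.89 to 15.2 in shTMEM45A, with PTPRC at 0 in every library. The fibroblast sum was 46.7 to 52.5 CPM in shSHCBP1_1 and 48.2 to 50.9 in shSHCBP1_2, overlapping NC in both. The immune sum was 4.28 to 6.24 CPM in shSHCBP1_1, overlapping NC, and 6.2 to 7.23 in shSHCBP1_2. All these sums moved in shTMEM45A. Those of the labelled line and the embryonic kidney line moved in both shSHCBP1 groups too, and the immune sum lay above NC in shSHCBP1_2. The repair genes below also moved with the groups, and the part of the marker sums in the results was not tested. In bulk libraries fewer cells of a type and less RNA per cell cannot be told apart.

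Summed over all 39 genes, the repair transcripts stood at 2228 ± 41.2 CPM in NC, 2020.0 ± 52.4 in shSHCBP1_1, 2027 ± 18.4 in shSHCBP1_2, 1519 ± 3.63 in set 4 and 1509 ± 8.0 in set 2. On this scale the sum was lower than NC in every hairpin group, with no overlap between libraries. As an unscaled share of all counts it was 0.22% to 0.229% in NC, 0.218% to 0.23% in shSHCBP1, which overlapped NC, and 0.132% to 0.135% in shTMEM45A. By role the sums did not move alike. The Fanconi sum went from 769 ± 6.45 CPM in NC to 646 ± 15.2 in shSHCBP1_1, 603 ± 11.8 in shSHCBP1_2, 421 ± 11.2 in set 4 and 390.1 ± 11.7 in set 2. The sum of the BRCA proteins and partners went from 155 ± 2.77 to 165 ± 1.31, 181 ± 3.73, 124 ± 3.99 and 134 ± 2.74 CPM in the same order, above NC in both shSHCBP1 groups and below it in both shTMEM45A groups.

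In the libraries labelled shSHCBP1 the changes were small and went both ways. FANCD2, FANCI, FANCA, EXO1, CHEK1 and ATM fell, whereas RBBP8, BLM, RAD51C and RAD51D rose. Against NC, 4 of the 39 genes rose and 9 fell in shSHCBP1_1 at an adjusted p under 0.05 (edgeR's quasi-likelihood test, adjusted over all genes). Of all genes tested 19.9% were called there, 9.34% higher and 10.5% lower. In shSHCBP1_2, 9 rose and 13 fell, beside 31.1% of all genes called, 15.6% higher and 15.4% lower. The median log2 change of the 39 genes was -0.12 in shSHCBP1_1 and -0.16 in shSHCBP1_2, where that of all genes was 0.01 in both. The called changes lay between -0.40 and 0.49 in shSHCBP1_1 and between -0.63 and 0.64 in shSHCBP1_2 on the log2 scale. Scaling to total counts moved the median of all genes to 0.15 and 0.17 and that of the 39 genes to 0.02 and 0.01. Under that scaling 9 genes rose and 2 fell in shSHCBP1_1, EXO1 and FANCD2, beside 21.4% of all genes called higher and 3.45% lower. In shSHCBP1_2, 12 rose and 6 fell, beside 29.1% and 6.52% of all genes. No gene was called in the opposite direction under that scaling.

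In the shTMEM45A libraries most of the repair genes fell, some by a factor of 4 or more. TP53BP1, RAD54B, RAD54L, ATM, FANCA and FANCD2 fell in both sets, and RAD51C, XRCC3, CHEK2, BLM and RBBP8 rose in both. In set 4, 9 of the 39 genes rose and 28 fell, beside 35.6% of all genes called higher and 38.9% called lower. In set 2, 10 rose and 27 fell, beside 36.1% and 39.8%. The median log2 change of the 39 genes was -0.70 in set 4 and -0.80 in set 2, against -0.03 and -0.04 over all genes. Since 74.4% and 75.9% of all genes were called in some direction, a call was common there. FANCF is among the genes counted as higher, although its few counts decide that (below).

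**Figure D1:**
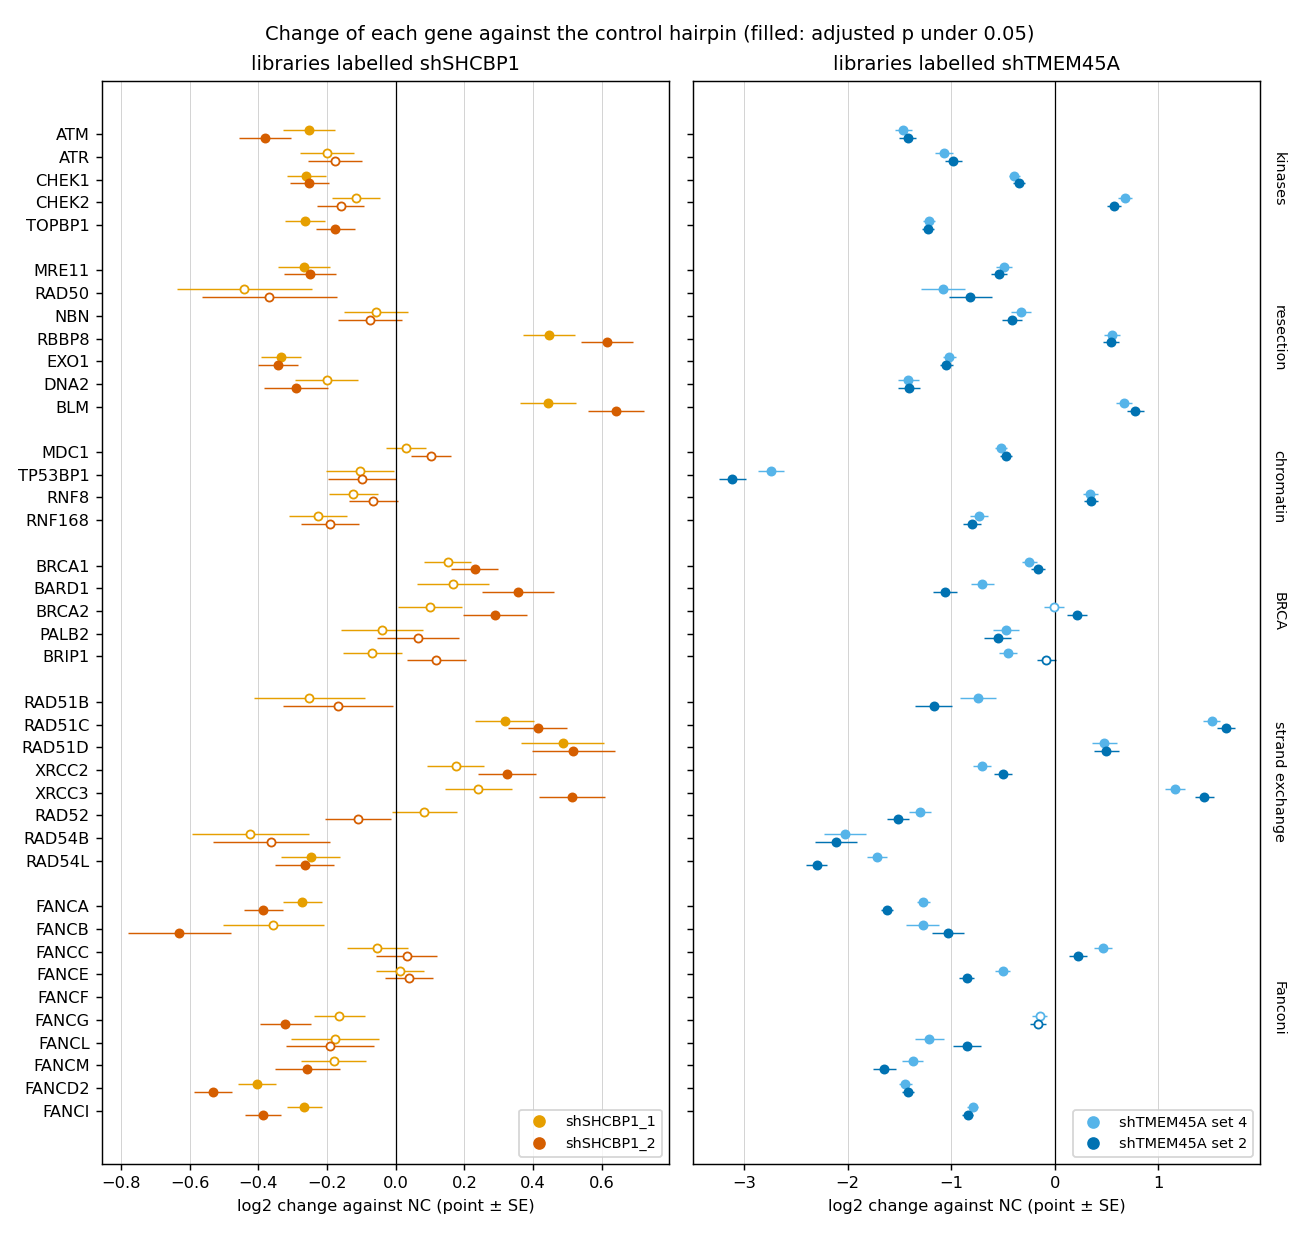
Log2 change of each gene against the control hairpin (x axis, point ± SE), ordered by role, for the libraries labelled shSHCBP1 (left) and shTMEM45A (right), with filled points at an adjusted p under 0.05. The x axes differ between panels; FANCF is not drawn because of its few counts, and TP53BP1 lies farthest left in the shTMEM45A panel at -2.74 and -3.11.

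**Figure D2:**
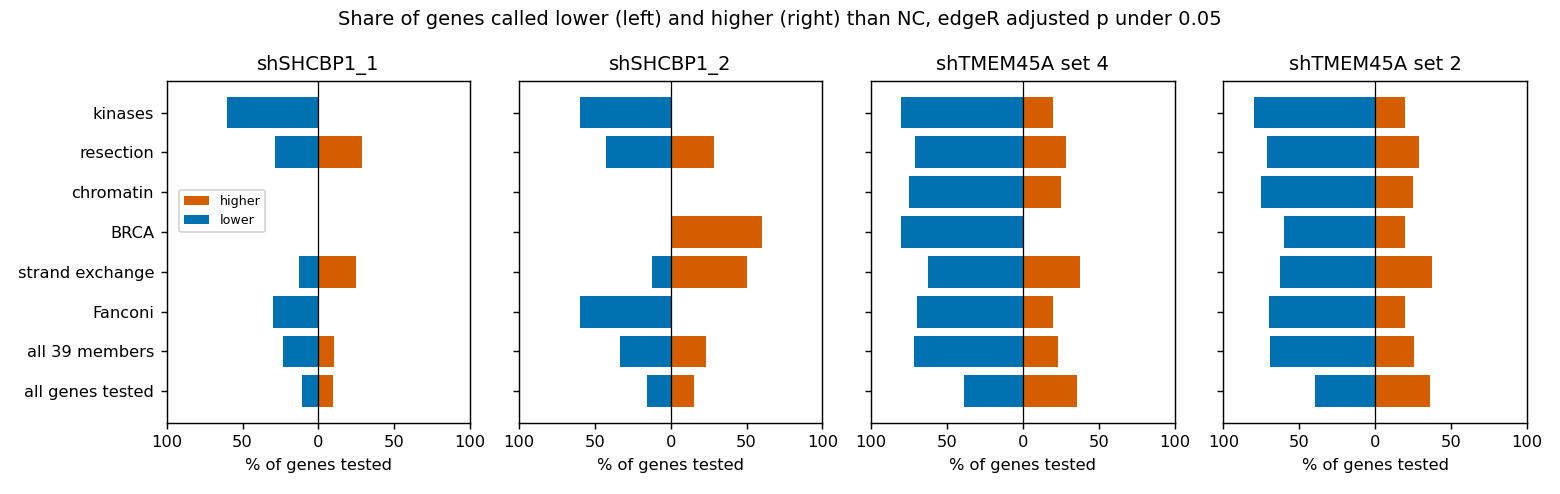
Percent of the genes of each role called lower (bars to the left) and higher (bars to the right) than NC, 1 panel for each hairpin group, with all 39 genes and all genes tested at the foot. The BRCA row has no bar in shSHCBP1_1 and only a bar to the right in shSHCBP1_2, where 3 of 5 genes were called higher. FANCF, with its few counts, is included in the shTMEM45A bars to the right.

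Damage kinases and their activator fell or showed no called change in shSHCBP1, and all but CHEK2 fell in shTMEM45A. Of the 5 genes, 3 were called lower in each shSHCBP1 group (ATM, CHEK1 and TOPBP1) and none higher. In each shTMEM45A set 1 rose and 4 fell. Over all genes, the background for this role and each role below, 9.34% were called higher and 10.5% lower in shSHCBP1_1. These shares were 15.6% and 15.4% in shSHCBP1_2, 35.6% and 38.9% in set 4, and 36.1% and 39.8% in set 2. ATM, the kinase that answers double-strand breaks, stood at 57.8, 65.7 and 60.8 CPM in NC, at 54.1, 50.8 and 49.8 in shSHCBP1_1 and at 46.1, 49.0 and 46.5 in shSHCBP1_2. Every shSHCBP1 library lay below every NC library. The log2 change was -0.25 (SE 0.076, adjusted p = 0.0181) in shSHCBP1_1 and -0.38 (SE 0.077, adjusted p = 0.000278) in shSHCBP1_2. In shTMEM45A, ATM stood at 21.2, 20.6 and 25.1 CPM in set 4 and 25.1, 22.7 and 21.1 in set 2, far below the lowest NC library. That made it 2.76-fold lower (log2 change -1.46, SE 0.084, adjusted p = 5.55e-16) in set 4 and 2.67-fold lower (-1.42, SE 0.083, adjusted p = 9.09e-16) in set 2.

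ATR, the kinase that answers exposed single strands, stood at 36.3, 36.5 and 34.3 CPM in NC, 31.5, 31.8 and 29.9 in shSHCBP1_1 and 30.6, 32.7 and 31.3 in shSHCBP1_2. All 6 shSHCBP1 values lay below NC, but neither difference passed the test (log2 change -0.20, adjusted p = 0.0756, and -0.18, adjusted p = 0.0884). In set 4 ATR stood at 16.7, 16.5 and 17.9 CPM and in set 2 at 17.3, 17.9 and 19.1, below every NC library. The log2 change was -1.07 in set 4 (SE 0.085, adjusted p = 1.64e-12) and -0.98 in set 2 (SE 0.084, adjusted p = 8.84e-12). TOPBP1, the scaffold that activates ATR, changed by -0.26 and -0.18 in the shSHCBP1 groups and by -1.21 and -1.22 in sets 4 and 2. CHEK1, the effector kinase below ATR, changed by -0.26, -0.25, -0.39 and -0.35 in the same order, all called lower.

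CHEK2, the effector kinase below ATM, went the other way in shTMEM45A. It stood at 54.3, 54.5 and 55.3 CPM in NC, 89.9, 89.6 and 84.0 in set 4 and 84.1, 74.2 and 86.2 in set 2, so every shTMEM45A library lay above every NC library. The rise was 0.68 (SE 0.067, adjusted p = 1.9e-10) in set 4 and 0.57 (SE 0.068, adjusted p = 6.98e-09) in set 2 on the log2 scale. In shSHCBP1 its values were -0.12 and -0.16, neither called. The ATM call in shSHCBP1_1 was lost without NC replicate 2 (log2 change -0.20, adjusted p = 0.12), shSHCBP1_1 replicate 2 (adjusted p = 0.0698) or shSHCBP1_1 replicate 3 (adjusted p = 0.0871). The TOPBP1 call in shSHCBP1_2 was lost without NC replicate 2 (adjusted p = 0.0871), shSHCBP1_2 replicate 1 (0.077) or replicate 3 (0.0579), and scaling to total counts ended both TOPBP1 and both CHEK1 calls in shSHCBP1 and the ATM call in shSHCBP1_1.

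Among genes of break sensing, resection and unwinding, RBBP8 and BLM rose in all 4 hairpin groups while EXO1 fell in all 4. Of the 7 genes, 2 rose and 2 fell in shSHCBP1_1, 2 rose and 3 fell in shSHCBP1_2, and 2 rose and 5 fell in each shTMEM45A set. RBBP8 encodes CtIP, which starts resection together with the MRE11 complex. It stood at 42.2, 41.6 and 36.7 CPM in NC, 51.0, 56.9 and 56.4 in shSHCBP1_1, 61.6, 62.3 and 60.7 in shSHCBP1_2, 57.1, 62.0 and 57.2 in set 4 and 52.2, 64.2 and 59.2 in set 2. The 3 NC libraries were below all 12 others. The log2 change was 0.45 (SE 0.077, adjusted p = 8.01e-05) in shSHCBP1_1, 0.61 (SE 0.076, adjusted p = 2.64e-07) in shSHCBP1_2, 0.55 (SE 0.077, adjusted p = 2.21e-07) in set 4 and 0.54 (SE 0.077, adjusted p = 2.5e-07) in set 2.

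BLM is the helicase of Bloom syndrome, which unwinds DNA during long-range resection and later dissolves joint molecules. Its levels were 26.7, 26.5 and 23.4 CPM in NC, 35.7, 35.7 and 32.7 in shSHCBP1_1, 42.3, 36.8 and 40.2 in shSHCBP1_2, 39.9, 39.4 and 42.4 in set 4 and 41.0, 44.9 and 45.3 in set 2. Again no library of a hairpin group was as low as any NC library. BLM rose by 0.44 (SE 0.082, adjusted p = 0.000181) and 0.64 (SE 0.081, adjusted p = 3.57e-07) in the shSHCBP1 groups and by 0.67 (SE 0.082, adjusted p = 1.59e-08) and 0.78 (SE 0.081, adjusted p = 5.97e-10) in sets 4 and 2 on the log2 scale.

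EXO1, a nuclease of long-range resection, stood at 165, 169.5 and 157 CPM in NC, 134, 134 and 123 in shSHCBP1_1 and 125, 136 and 127 in shSHCBP1_2. The shSHCBP1 libraries were all lower than NC, and EXO1 fell by 0.33 (SE 0.058, adjusted p = 0.000103) and 0.34 (SE 0.059, adjusted p = 3.5e-05) on the log2 scale. In set 4 and set 2 it stood at 80.3, 80.8 and 81.8 and 79.5, 86.1 and 72.4 CPM (log2 change -1.02 and -1.05). DNA2, the other long-range nuclease, changed by -0.20 in shSHCBP1_1 (not called) and -0.29 in shSHCBP1_2 (adjusted p = 0.018), and by -1.41 and -1.41 in sets 4 and 2.

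The 3 genes of the break-binding complex were all called lower in shTMEM45A. MRE11, its nuclease, changed by -0.27 and -0.25 in shSHCBP1 and by -0.49 and -0.54 in sets 4 and 2, all called. NBN, its signalling subunit, gave -0.06 and -0.07 in shSHCBP1, neither called, and -0.32 and -0.41 in sets 4 and 2, both called lower. RAD50, the ATPase that bridges the ends, gave -0.44 and -0.37 in shSHCBP1, not called with an SE of 0.20, and fell by 1.08 and 0.82 in sets 4 and 2. The MRE11 call was lost in both shSHCBP1 groups without NC replicate 2 (adjusted p = 0.119 and 0.122), in shSHCBP1_1 without its replicate 2 (0.0582) or 3 (0.0891), and in shSHCBP1_2 without its replicate 2 (0.0531). The DNA2 call in shSHCBP1_2 was lost without NC replicate 1 (adjusted p = 0.0523) or 2 (0.0684) and without shSHCBP1_2 replicate 1 (0.0842) or 2 (0.0668), and total-count scaling ended these MRE11 and DNA2 calls too.

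Chromatin mediators at breaks showed no called change in shSHCBP1 and included the largest fall of all 39 genes in shTMEM45A. TP53BP1 encodes 53BP1, which shields ends from resection and favours end joining. Its levels were 46.6, 38.4 and 40.3 CPM in NC, 39.8, 40.0 and 36.7 in shSHCBP1_1 and 40.9, 39.6 and 36.6 in shSHCBP1_2, so these groups overlapped. In set 4 it stood at 7.96, 4.91 and 5.72 CPM and in set 2 at 5.59, 4.37 and 4.5. TP53BP1 was thus 6.70-fold lower in set 4 (log2 change -2.74, SE 0.12, adjusted p = 2.05e-18) and 8.65-fold lower in set 2 (-3.11, SE 0.13, adjusted p = 2.09e-19). Its symbol found no match in the mouse annotation used for lengths, so it was outside the length-adjusted fit described further on.

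The other 3 mediators changed less. RNF8 and RNF168 are the ubiquitin ligases that act in turn to recruit 53BP1 to chromatin. RNF8 rose by 0.34 and 0.35 in sets 4 and 2, whereas RNF168 fell by 0.73 and 0.80 there. MDC1, the adaptor that binds marked histone next to the break, fell by 0.52 and 0.47. In shSHCBP1 the values of these 3 genes ran from -0.23 to 0.10, none called. The RNF8 rise in set 4 was not called under total-count scaling (log2 change 0.15, adjusted p = 0.0559).

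BRCA proteins and their partners had no called change in shSHCBP1_1, 3 of 5 called higher in shSHCBP1_2, and mostly falls in shTMEM45A. BRCA1 directs resected ends towards recombination. It stood at 59.9, 64.3 and 59.0 CPM in NC, 65.2, 74.4 and 64.0 in shSHCBP1_1 and 71.6, 66.1 and 77.2 in shSHCBP1_2. The first shSHCBP1 group overlapped NC and the second lay above it, with log2 changes of 0.15 (SE 0.069, adjusted p = 0.128) and 0.23 (SE 0.069, adjusted p = 0.0113). In set 4 BRCA1 stood at 52.2, 51.4 and 50.7 CPM and in set 2 at 52.5, 55.4 and 55.9, below NC in every library. The log2 change was -0.25 (SE 0.071, adjusted p = 0.0027) in set 4 and -0.16 (SE 0.071, adjusted p = 0.0412) in set 2, which are among the smallest called falls of the shTMEM45A libraries.

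BRCA2, which loads the recombinase, stood at 25.5, 22.9 and 25.7 CPM in NC, 28.2, 25.1 and 26.1 in shSHCBP1_1 and 29.5, 29.2 and 31.9 in shSHCBP1_2. It was higher in shSHCBP1_2 (log2 change 0.29, SE 0.093, adjusted p = 0.0172) and not called in shSHCBP1_1 (0.10, adjusted p = 0.505). In shTMEM45A it stood at 21.1, 26.1 and 26.8 CPM in set 4, overlapping NC, and at 28.9, 29.6 and 27.5 in set 2. The log2 change was -0.01 in set 4 (adjusted p = 0.964) and 0.22 (SE 0.094, adjusted p = 0.0387) in set 2, so BRCA2 was called higher in set 2 and not called in set 4. The difference between the sets was 0.22 and was not called (adjusted p = 0.182).

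BARD1, the obligate partner of BRCA1, gave 0.17 in shSHCBP1_1 (not called) and 0.36 in shSHCBP1_2 (adjusted p = 0.00954), and fell by 0.70 and 1.06 in sets 4 and 2. PALB2, which joins BRCA1 to BRCA2, gave -0.04 and 0.06 in shSHCBP1 and fell by 0.47 and 0.55 in sets 4 and 2. BRIP1, the helicase bound by BRCA1, fell in set 4 (-0.45, adjusted p = 4.68e-05) and gave -0.08 in set 2 (adjusted p = 0.409). Several of these calls rest on single libraries or on the setting. In shSHCBP1_2, BRCA1 was no longer called without NC replicate 1 (adjusted p = 0.0511) or shSHCBP1_2 replicate 3 (0.104), BRCA2 without NC replicate 2 (0.101) or shSHCBP1_2 replicate 3 (0.0929), and BARD1 without NC replicate 3 (0.0652) or shSHCBP1_2 replicate 2 (0.105). In set 2, BRCA1 was lost without NC replicate 2 (adjusted p = 0.138) or set 2 replicate 1 (0.109), and BRCA2 without NC replicate 1 (0.0601), NC replicate 2 (0.192), or set 2 replicate 1 (0.0726) or 2 (0.0955). Total-count scaling left 0.03 for BRCA2 in set 2 (adjusted p = 0.808), and it was not called there under RLE scaling (0.0597), by DESeq2 (0.108) or with no filter (0.15). Upper-quartile scaling left -0.09 for BRCA1 in set 2 (adjusted p = 0.275). Under RLE scaling and by DESeq2 BRCA1 and BRCA2 were not called in shSHCBP1_2 (adjusted p from 0.0818 to 0.116), while under total counts BRCA1 and BARD1 were called higher in shSHCBP1_1 too (0.29 and 0.31). The sign of BRCA1 in shTMEM45A also turned once transcript length was taken into account, as given further on.

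**Figure D3:**
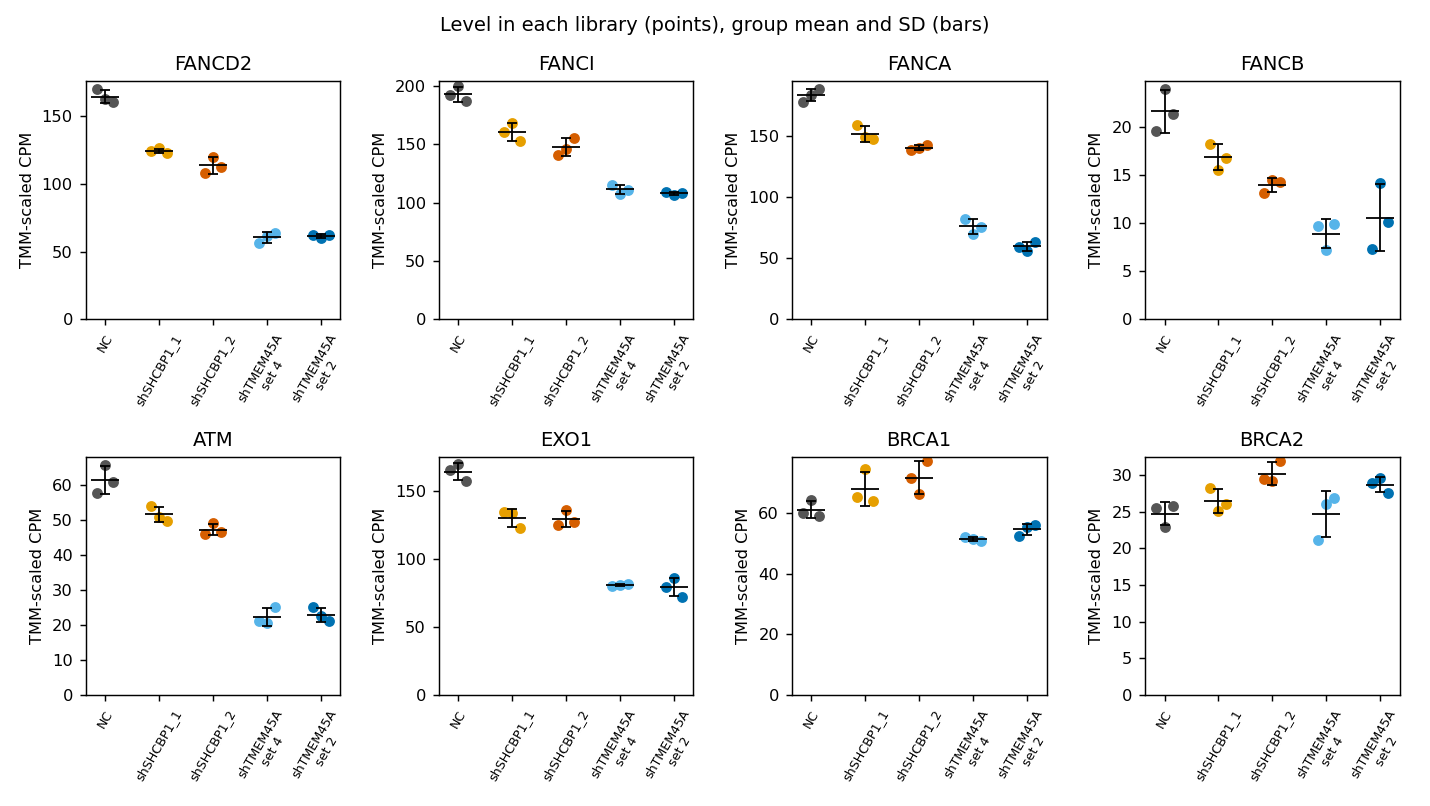
Level in each library (points, scaled CPM on axes that start at 0) with group mean and SD for FANCD2, FANCI, FANCA, FANCB, ATM, EXO1, BRCA1 and BRCA2. FANCD2 has the 3 NC libraries highest, the 6 shSHCBP1 libraries below them and the 6 shTMEM45A libraries lowest, whereas the 5 groups of BRCA2 stay close to each other.

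Among strand exchange genes the recombinase paralogs RAD51C and RAD51D rose in every hairpin group, whereas RAD54L fell in each. Of the 8 genes, 2 rose and 1 fell in shSHCBP1_1, and 4 rose and 1 fell in shSHCBP1_2. In each shTMEM45A set 3 rose and 5 fell. The 37.5% that rose there lay near the 35.6% and 36.1% of all genes in sets 4 and 2. RAD51C, a paralog that belongs to both complexes formed by these proteins, stood at 25.2, 24.5 and 22.2 CPM in NC, 30.6, 27.7 and 31.1 in shSHCBP1_1 and 30.9, 32.9 and 31.8 in shSHCBP1_2. It rose by 0.32 (SE 0.087, adjusted p = 0.00873) and 0.41 (SE 0.086, adjusted p = 0.000424) on the log2 scale, and no shSHCBP1 library was as low as NC. In sets 4 and 2 it stood at 62.9, 69.8 and 73.1 CPM and 83.6, 72.7 and 70.0 CPM. RAD51C was 2.86-fold higher in set 4 (log2 change 1.52, SE 0.083, adjusted p = 1.85e-16) and 3.15-fold higher in set 2 (1.65, SE 0.082, adjusted p = 1.63e-17).

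XRCC3 pairs with RAD51C in the smaller of the paralog complexes. Its levels were 32.4, 30.4 and 36.1 CPM in NC, 40.8, 39.4 and 36.7 in shSHCBP1_1, 45.8, 47.0 and 48.6 in shSHCBP1_2, 75.6, 78.0 and 67.4 in set 4 and 100.2, 72.5 and 97.1 in set 2. All hairpin libraries lay above NC. The change was 0.24 (SE 0.097, adjusted p = 0.0788) in shSHCBP1_1, not called, 0.51 (SE 0.096, adjusted p = 0.000103) in shSHCBP1_2, 1.16 (SE 0.094, adjusted p = 2.24e-12) in set 4 and 1.45 (SE 0.093, adjusted p = 8.75e-15) in set 2. RAD51B, RAD51D and XRCC2 are the remaining paralogs and sit with RAD51C in the larger complex. RAD51D, at 11.2 ± 1.11 CPM in NC, rose by 0.49, 0.52, 0.48 and 0.50 in shSHCBP1_1, shSHCBP1_2, set 4 and set 2. XRCC2 gave 0.17 in shSHCBP1_1 (not called), rose by 0.32 in shSHCBP1_2 and fell by 0.70 and 0.50 in sets 4 and 2, while RAD51B fell by 0.74 and 1.17 in those sets. The RAD51D row may share reads with its neighbour RFFL, which reached 192 counts in a library against a lowest count of 147 for RAD51D. The row of their joint transcript, RAD51L3-RFFL, held 0 counts in every library.

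RAD54L and RAD54B are motor proteins that help the recombinase invade the intact copy. RAD54L stood at 87.7, 86.4 and 88.3 CPM in NC, 74.0, 78.5 and 68.5 in shSHCBP1_1 and 72.1, 75.0 and 71.2 in shSHCBP1_2, slightly below NC. The log2 change was -0.25 (SE 0.086, adjusted p = 0.0405) and -0.26 (SE 0.086, adjusted p = 0.0189). In set 4 it stood at 28.9, 25.4 and 25.6 CPM and in set 2 at 14.9, 15.3 and 23.1. It was 3.28-fold lower in set 4 (log2 change -1.71, SE 0.095, adjusted p = 2.84e-16) and 4.93-fold lower in set 2 (-2.30, SE 0.10, adjusted p = 5.76e-19). RAD54B stood at 9.86, 11.1 and 9.47 CPM in NC, 2.74, 2.86 and 1.83 in set 4 and 2.25, 3.1 and 1.67 in set 2, with no overlap. Its log2 change was -2.03 (SE 0.20, adjusted p = 2.06e-10) in set 4 and -2.11 (SE 0.20, adjusted p = 9.18e-11) in set 2, and -0.42 and -0.36 in shSHCBP1, where it was not called. RAD52, which anneals complementary strands, fell by 1.30 and 1.52 in sets 4 and 2 and gave 0.08 and -0.11 in shSHCBP1.

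Of the calls for strand exchange genes in shSHCBP1, that of RAD51C in shSHCBP1_1 was lost without NC replicate 3 (log2 change 0.27, adjusted p = 0.0588), and XRCC3 was gained there without the same library (adjusted p = 0.0456). The RAD54L fall was the least stable: it was lost in shSHCBP1_1 without any 1 of the 3 NC libraries or shSHCBP1_1 replicate 1 or 3 (adjusted p from 0.0869 to 0.198). In shSHCBP1_2 it was lost without NC replicate 1 or 3 or shSHCBP1_2 replicate 1 or 3 (adjusted p from 0.0574 to 0.0735). Scaling to total counts ended both RAD54L calls in shSHCBP1 as well.

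**Figure D4:**
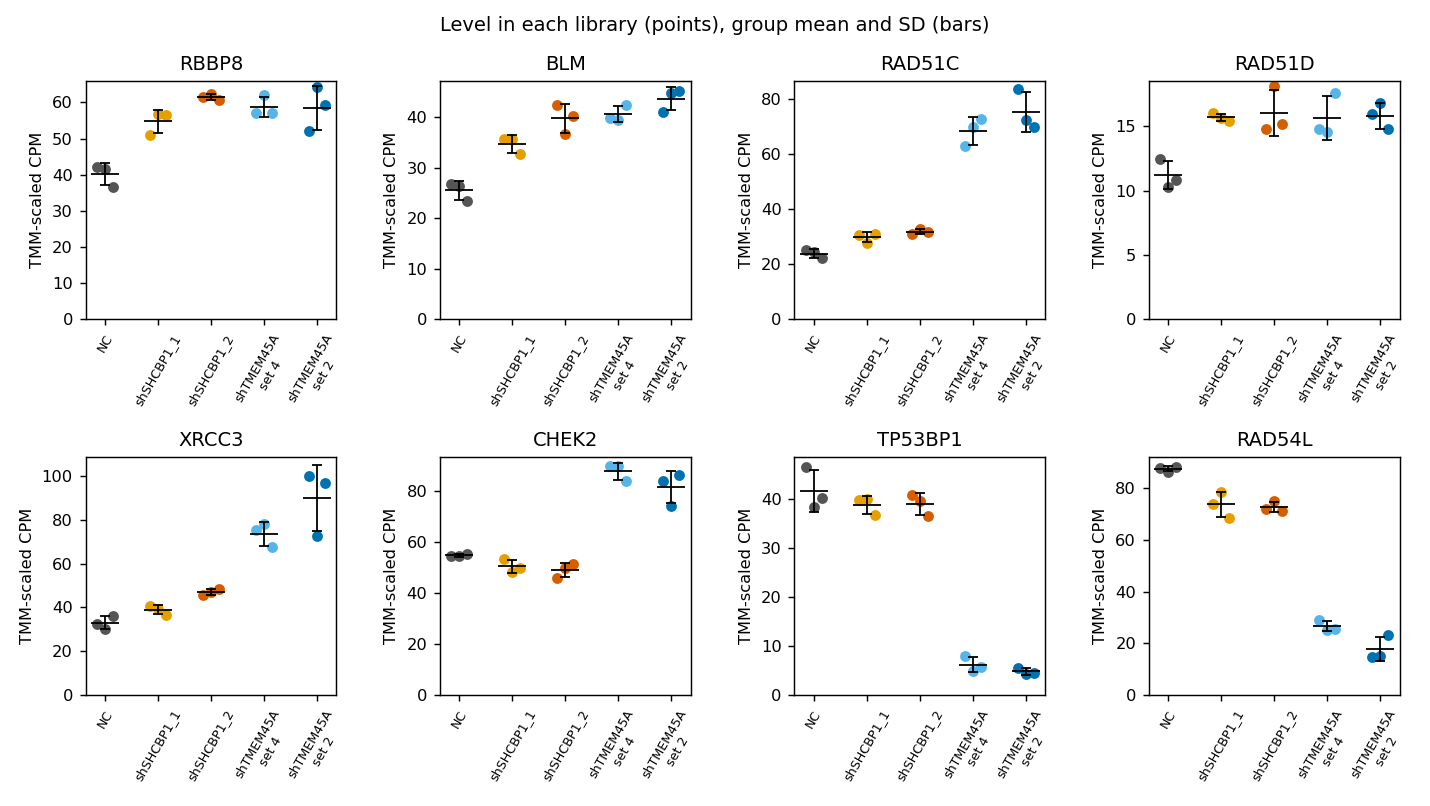
Level in each library (points, scaled CPM on axes that start at 0) with group mean and SD for RBBP8, BLM, RAD51C, RAD51D, XRCC3, CHEK2, TP53BP1 and RAD54L. RAD51C, XRCC3 and CHEK2 are highest in the shTMEM45A libraries, while TP53BP1 and RAD54L are lowest there.

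Fanconi genes fell or were not called in shSHCBP1, and most fell in shTMEM45A. Of the 10 genes, 3 fell and none rose in shSHCBP1_1, 6 fell and none rose in shSHCBP1_2, and 7 fell and 2 rose in each shTMEM45A set, FANCC and FANCF. FANCD2 and FANCI form the clamp that the core complex marks with ubiquitin. FANCD2 stood at 170.2, 162 and 161 CPM in NC, 124, 126 and 123 in shSHCBP1_1 and 108, 120.2 and 113 in shSHCBP1_2, with every shSHCBP1 library below NC. It fell by 0.40 (SE 0.055, adjusted p = 3.23e-06) in shSHCBP1_1 and by 0.53 (SE 0.056, adjusted p = 1.15e-08) in shSHCBP1_2 on the log2 scale. In sets 4 and 2 FANCD2 stood at 56.1, 61.5 and 64.0 CPM and 62.6, 60.1 and 62.0 CPM. It was 2.72-fold lower (log2 change -1.44, SE 0.059, adjusted p = 1.24e-19) and 2.67-fold lower (-1.42, SE 0.058, adjusted p = 1.46e-19).

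FANCI, the partner of FANCD2 in the clamp, stood at 193 ± 6.34 CPM in NC (SD, n = 3), 161 ± 7.93 in shSHCBP1_1, 148 ± 7.52 in shSHCBP1_2, 111 ± 3.92 in set 4 and 108 ± 1.40 in set 2. Its log2 changes were -0.27, -0.39, -0.79 and -0.84 in that order, all called lower and smaller in size than those of FANCD2. FANCA, a scaffold of the core ligase complex, stood at 178, 183 and 188 CPM in NC, 159, 148 and 147 in shSHCBP1_1, 138, 139.6 and 142 in shSHCBP1_2, 82.0, 69.9 and 75.5 in set 4 and 59.1, 56.1 and 63.3 in set 2. The libraries of NC, of shSHCBP1 and of shTMEM45A did not overlap with each other. FANCA changed by -0.27 (SE 0.056, adjusted p = 0.000728) in shSHCBP1_1, -0.39 (SE 0.057, adjusted p = 3.88e-06) in shSHCBP1_2, -1.27 (SE 0.059, adjusted p = 3.84e-18) in set 4 and -1.62 (SE 0.061, adjusted p = 1.27e-20) in set 2.

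Other core genes were less alike. FANCB stood at 19.6, 23.9 and 21.4 CPM in NC and 13.1, 14.5 and 14.2 in shSHCBP1_2, and gave the largest called fall of that group (-0.63, SE 0.15, adjusted p = 0.00158). In shSHCBP1_1 it gave -0.36, not called (adjusted p = 0.0888). It fell by 1.28 and 1.03 in sets 4 and 2. FANCG gave -0.16 in shSHCBP1_1 (not called), fell by 0.32 in shSHCBP1_2, and was not called in set 4 (-0.15, adjusted p = 0.0743) or set 2 (-0.16, adjusted p = 0.0503). FANCM, the translocase that anchors the complex at stalled forks, gave -0.18 in shSHCBP1_1 (not called) and -0.26 in shSHCBP1_2, and fell by 1.37 and 1.64 in sets 4 and 2. FANCL, the ligase itself, gave -0.18 and -0.19 in shSHCBP1, neither called, and fell by 1.21 and 0.85. FANCE, which bridges the core complex to FANCD2, gave 0.01 and 0.04 in shSHCBP1 and fell by 0.50 and 0.85. FANCC, the partner of FANCE, went the other way in shTMEM45A with 0.46 and 0.23, both called higher, although in set 2 its libraries overlapped NC.

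FANCF, an adaptor of the core complex, had few counts everywhere. Its counts were 4, 0 and 3 in NC, 6, 6 and 9 in shSHCBP1_1, 7, 5 and 9 in shSHCBP1_2, 13, 9 and 8 in set 4 and 22, 11 and 18 in set 2. It passed the filter on low counts only through 3 shTMEM45A libraries, the groups where it stood highest. Its call there is therefore not read as a result. Total-count scaling ended the calls of FANCA (-0.13) and FANCI (-0.12) in shSHCBP1_1, of FANCG (-0.16) and FANCM (-0.09) in shSHCBP1_2 and of FANCC (0.03) in set 2. The FANCM call in shSHCBP1_2 was also lost when any 1 of the 6 libraries compared was left out (adjusted p from 0.059 to 0.169). The FANCC call in set 2 was lost without NC replicate 2 (adjusted p = 0.0871), NC replicate 3 (0.0952) or set 2 replicate 3 (0.217). FANCG was called lower in set 4 without its library 1 (adjusted p = 0.0432), and in set 2 without NC replicate 1 (0.0424) or set 2 replicate 3 (0.0158).

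The hairpin groups of one target were compared directly, which leaves out the control libraries and stays within one table. Between shSHCBP1_2 and shSHCBP1_1 no repair gene passed edgeR's test, beside 0.835% of all genes called, 0.499% higher and 0.336% lower. At an unadjusted p under 0.05, 5 genes were higher and 3 lower, beside 10.8% of all genes in either direction, and DESeq2 called 0. A fit of these 6 libraries alone called 3 higher and 3 lower, beside 5.09% of all genes higher and 4.44% lower. The differences ran from -0.27 to 0.27 on the log2 scale, with FANCB at -0.27 and XRCC3 at 0.27 at the ends. Thus calls made in shSHCBP1_2 and not in shSHCBP1_1, such as those of BRCA1, XRCC2 and FANCB, came without a called difference between these groups.

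Between set 2 and set 4, 1 repair gene was called higher in set 2 and 3 lower, beside 5.27% of all genes called, 1.95% higher and 3.32% lower. BRIP1 stood at 19.4, 24.1 and 22.3 CPM in set 4 and 26.7, 30.5 and 27.8 in set 2, with NC at 30.5, 29.7 and 29.6, so set 2 lay near NC. The difference was 0.37 (SE 0.090, adjusted p = 0.0127) on the log2 scale. RAD54L was lower in set 2 by 0.59 (SE 0.11, adjusted p = 0.00116), with 1 of its 3 set 2 libraries close to set 4. FANCA was lower in set 2 by 0.35 (SE 0.063, adjusted p = 0.000677), and so was FANCE (SE 0.076, adjusted p = 0.00594), which stood at 38.1, 39.6 and 42.1 CPM in set 4 and 31.7, 29.5 and 33.0 in set 2. A fit of these 6 libraries alone called none of the 4 genes (adjusted p from 0.0602 to 0.164), beside 0.263% of all genes higher and 0.509% lower. Libraries of a shTMEM45A set differed from each other more than those of the other groups (chi-square of the counts of 2 libraries per gene, 3.798 to 10.02 in the shTMEM45A sets and 1.785 to 3.237 in NC and shSHCBP1), and the fit of all groups shares one estimate of the spread over them. The BRIP1 call was also lost without set 4 library 1 (log2 difference 0.28, adjusted p = 0.0938), and leaving out 1 set 2 library called BARD1, FANCC or XRCC3 in turn.

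Genes that work beside the 39 were taken from lists chosen by function. Of 18 Fanconi partners and crosslink repair genes, 2 rose and 1 fell in shSHCBP1_1, 3 rose and 2 fell in shSHCBP1_2, 8 rose and 7 fell in set 4, and 8 rose and 8 fell in set 2. These are 44.4% higher and 38.9% lower in set 4 and 44.4% and 44.4% in set 2. Over all genes, the background for each list here, 9.34% were called higher and 10.5% lower in shSHCBP1_1, 15.6% and 15.4% in shSHCBP1_2, 35.6% and 38.9% in set 4, and 36.1% and 39.8% in set 2. ERCC4, the nuclease subunit that unhooks crosslinks, rose from 4.08 ± 0.896 to 8.42 ± 0.924 CPM (log2 change 1.04, adjusted p = 6.45e-05) in shSHCBP1_1 and had a log2 change of 1.16 in shSHCBP1_2. FAN1, a nuclease recruited by the marked clamp, fell in set 4 from 18.1 ± 1.37 to 2.33 ± 0.170 CPM (log2 change -2.96, adjusted p = 5.08e-17), with -3.27 in set 2. CENPS and CENPX, the histone-fold partners of FANCM, rose in both shTMEM45A sets, in which FANCM itself fell. The rise was 2.01 and 2.18 for CENPS, at a mean of only 2.04 CPM in NC, and 1.91 and 2.03 for CENPX. FANCM has a long transcript, 7775 nt in the mouse annotation. Values of the further lists, here and below, are without the length offsets described further on. The part of length in them was not tested.

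Of 15 genes of ATR activation, the checkpoint clamp and fork protection, 3 rose and 2 fell in shSHCBP1_1, 3 rose and 3 fell in shSHCBP1_2, and 7 rose and 7 fell in each shTMEM45A set. ATRIP, the obligate partner of ATR, rose in shSHCBP1_1 from 10.5 ± 1.23 to 16.4 ± 1.37 CPM (log2 change 0.64, adjusted p = 8.27e-05) and had log2 changes of 0.78 in shSHCBP1_2, 1.74 in set 4 and 2.04 in set 2, the opposite sign to ATR. CLSPN, which carries the signal from ATR to CHEK1, fell in set 4 from 70.4 ± 2.97 to 8.89 ± 2.09 CPM (log2 change -2.98, adjusted p = 2.05e-20), with -3.35 in set 2. TIMELESS, a fork protection gene, fell in all 4 groups (-0.25, -0.34, -1.21 and -1.22).

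Of 9 tested genes of the BRCA1-A complex and shieldin, 0 rose and 2 fell in shSHCBP1_1, 1 rose and 1 fell in shSHCBP1_2, 5 rose and 4 fell in set 4, and 5 rose and 3 fell in set 2. ABRAXAS1, the scaffold of the BRCA1-A complex, fell in all 4 (-0.67, -0.61, -1.76 and -1.75), while BABAM1 of the same complex rose in set 4 (1.39) and set 2 (1.56). Among 19 tested genes of junction processing and accessory recombination, 2 rose and 0 fell in shSHCBP1_1, 3 rose and 2 fell in shSHCBP1_2, 8 rose and 8 fell in set 4, and 9 rose and 8 fell in set 2. HELQ, a helicase that works with the recombinase paralogs, rose in all 4 (0.82, 0.95, 1.34 and 1.84). Of 11 tested genes of end joining, the competing pathway, none rose and 5 fell in each shSHCBP1 group, and 4 rose and 6 fell in each shTMEM45A set. PRKDC, its catalytic kinase, fell in shSHCBP1_1 from 700.0 ± 10.1 to 452 ± 15.4 CPM (log2 change -0.63, adjusted p = 9.14e-12) and had log2 changes of -0.66, -2.50 and -2.67 in shSHCBP1_2, set 4 and set 2.

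Markers of S and G2 phase and of dividing cells moved with the repair genes in part. Of 16 such genes, 2 rose and 5 fell in shSHCBP1_1, 1 rose and 4 fell in shSHCBP1_2, 5 rose and 9 fell in set 4, and 5 rose and 10 fell in set 2. Their median log2 change was -0.09, 0.00, -0.46 and -0.50 in that order. The shares of markers called higher and lower were 12.5% and 31.2% in shSHCBP1_1 and 6.25% and 25% in shSHCBP1_2. In set 4 they were 31.2% and 56.2%, and in set 2 31.2% and 62.5%. Over all genes the shares were 9.34% and 10.5%, 15.6% and 15.4%, 35.6% and 38.9%, and 36.1% and 39.8% in the same order. MKI67, a marker of dividing cells, rose in shSHCBP1_1 (0.44) and was the 1 gene called higher in shSHCBP1_2 (0.54). CCNB1 also rose in shSHCBP1_1 (0.16). The largest called falls were CCNE2 (-0.51) and MCM2 (-0.29) in shSHCBP1_1, and TOP2A (-0.37) and CDK1 (-0.36) in shSHCBP1_2. MCM2, a subunit of the replicative helicase, fell further in set 4 (-3.54) and set 2 (-4.27). CCNE2 fell there too (-2.76 and -2.68). PCNA, the replication clamp, rose in set 4 (0.65) and set 2 (0.62), and so did E2F1 (0.79 and 0.71). The part of the cell cycle in the changes of the repair genes was not tested.

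Transcript length moved with the change in the shTMEM45A libraries. Lengths came from the mouse annotation, by matching symbols, and 37 of the 39 symbols found a match, all but MRE11 and TP53BP1. Across 12737 genes, which are not independent replicates, Spearman's rho of the change against length was -0.488 in set 4 and -0.473 in set 2, against -0.0692 and -0.0211 in the shSHCBP1 groups. The repair genes have long transcripts, with a median of 3944 nt against 3172 nt over all genes with a length. Across the 37 genes rho was -0.203 in set 4 and -0.148 in set 2. In a fit with length offsets, 11 of the 37 genes rose and 23 fell in set 4, and 13 rose and 23 fell in set 2, beside 34.9% of all genes called higher and 37.4% lower in set 4 and 36.2% and 38.3% in set 2. The median log2 change of these genes was then -0.37 and -0.36, against -0.01 and -0.02 over all genes. FANCF, with its few counts, is among the 37.

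Length offsets turned the sign of BRCA1, BRCA2, BRIP1 and MDC1 in a set or in both. BRCA1 went from -0.25 to 0.33 in set 4 and from -0.16 to 0.45 in set 2, called in both directions. BRCA2 went to 0.86 in set 4, BRIP1 to 0.16 in set 4 (adjusted p = 0.114) and 0.56 in set 2, and MDC1 from -0.52 to 0.12 in set 4 and from -0.47 to 0.20 in set 2. Other changes kept their sign: ATM gave -0.65 and -0.58, FANCD2 -0.97 and -0.92, RAD54L -1.71 and -2.29, and RAD51C 1.74 and 1.89 in sets 4 and 2. The calls of BARD1, BRIP1 and MDC1 in set 4 and of RAD50 in set 2 were lost.

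**Figure D5:**
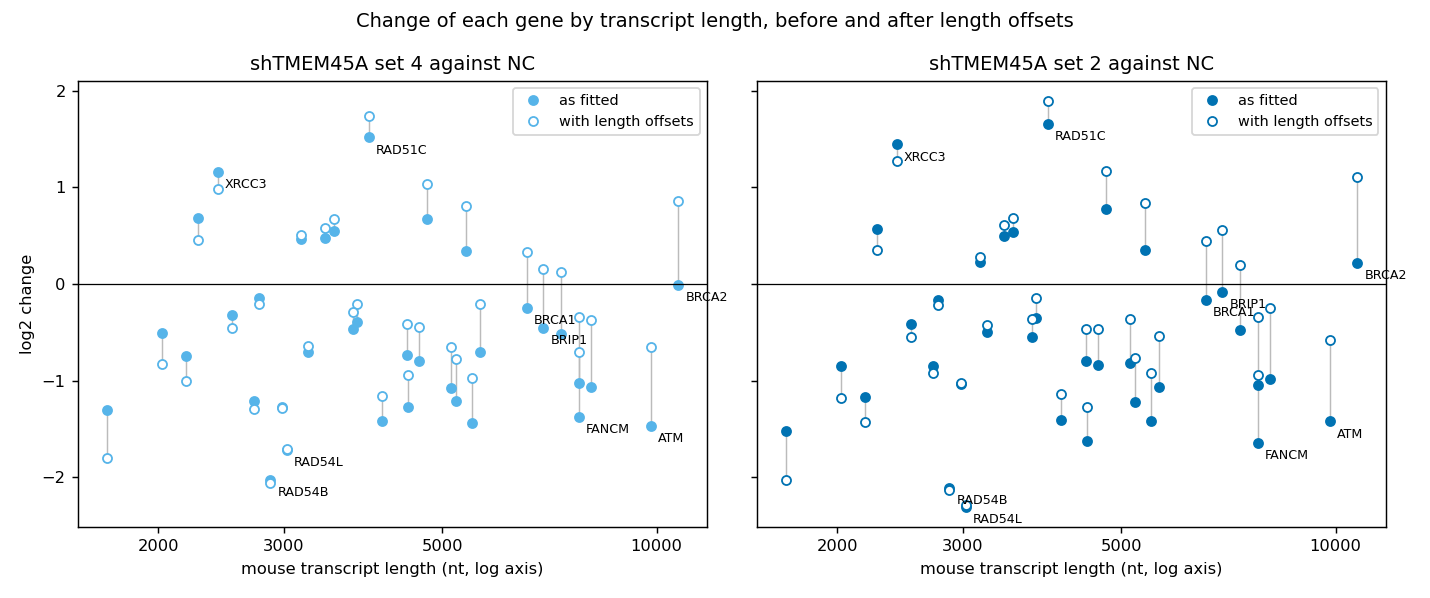
Log2 change against NC in shTMEM45A set 4 (left) and set 2 (right) by mouse transcript length (log axis, nt), as fitted (filled points) and with length offsets (open points), a grey line joining the values of a gene. Of the 37 genes with a length, FANCF is not drawn; BRCA1, BRCA2 and BRIP1 end above 0, while ATM, RAD54L and RAD54B stay below it.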

How the data were processed

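Polyadenylated RNA was sequenced as paired ends with a kit that does not mark strand, per the labels' protocols. The authors deposited 2 tables of counts, whole reads per gene symbol without normalization, each with 58735 rows. Aligner and counter: not given in the sources used here. Both tables carry human symbols, which were treated as human genes, although the labels give the mouse and the submitters' processing notes the build mm10. Names on several rows or turned into dates were left out (200 names, 1768 rows). The columns of set 4 were taken as the labels' set 1 by elimination.

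Genes passed filterByExpr (count minimum 10, total minimum 15) and all 15 libraries entered one fit of group means in edgeR 4.0.16 (R 4.3.3) with TMM scaling, the quasi-likelihood F test and Benjamini-Hochberg adjustment over 19051 genes, at a threshold of 0.05. SE was derived from the log2 change and the F statistic. At this depth 3 counts are at most 0.218 CPM. Pseudogene rows of CHEK2, MRE11, RBBP8 and FANCD2 held at most 3 counts in a library. The alternatives tried were other scalings and filters, fits of the 2 groups compared, a replicate block, length offsets, DESeq2 1.42.0 and leaving out each library. The pipeline was run on counts simulated for NC and shSHCBP1_1 alone, so its calls in shTMEM45A were not tested in that way. Named genes were BRCA1, BRCA2, ATM, ATR, FANCD2 and FANCA, the 4 largest rises and falls per comparison, and up to 2 of each per further list; other members are given by their changes. The members, lists and tests were chosen with earlier results of these data known.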

Additional observations from a re-analysis of the deposited data

Results flagged for a closer look

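The 4 repair genes that differed between the shTMEM45A sets stand here because both sets carry the same target label and the difference itself was tested. Set 2 minus set 4 was 0.37 on the log2 scale for BRIP1, -0.59 for RAD54L, -0.35 for FANCA and -0.35 for FANCE. Of all genes tested 5.27% were called between the sets, and a fit of the 2 sets alone called none of these 4 genes. TMEM45A itself stood at 17.8 ± 1.86 CPM in set 4 and 19.4 ± 0.761 in set 2.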

How the results depend on the processing

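Values for single genes and further lists were taken per comparison and alternative, so the same gene counts many times. Of these values, 2713 kept their side of the threshold without a called change of sign (counts: within 1.5 times). Of the rest, 131 counts of lists moved, 62 gene values lost a call and 41 gained one. A further 5 gene values reversed, with a call in at least 1 of the fits. In shSHCBP1_1 the count of lower genes (9) was 15 under RLE scaling and 2 under total counts. It was 16 both in the fit of the 2 groups and by DESeq2. Over all genes the share called lower there was 10.5% in the main fit, 16.2% under RLE scaling and 3.45% under total counts. It was 17% in the fit of the 2 groups and 8.28% by DESeq2, of 37606 genes. The count of higher genes (4) was 9 under total counts and 7 in the fit of the 2 groups. The share of all genes called higher was 9.34% in the main fit, 21.4% under total counts and 15.6% in the fit of the 2 groups. In shSHCBP1_2 the lower genes (13) came to 6 under total counts, where 6.52% of all genes were called lower, against 15.4% in the main fit. Set 2 against set 4 gave 2 higher genes (1) under RLE, total-count and upper-quartile scaling and under no filter. It also gave 2 with at least 1 CPM in 3 libraries and with length offsets. Over all genes these settings called 0.917% to 2.93% higher, against 1.95% in the main fit. The fit of the 2 groups gave 0 higher and 0 lower, beside 0.263% and 0.509% of all genes. That fit gave 3 higher and 3 lower genes between the shSHCBP1 groups, beside 5.09% and 4.44% of all genes. It called 5708 of all genes in shSHCBP1_1 (3787 in the fit of all groups), 1674 between the shSHCBP1 groups (159) and 129 between the shTMEM45A sets (1004). The share of calls that were higher, over all genes in shSHCBP1_1 and shSHCBP1_2, was 47% and 50.3%, against 29.1% and 34.6% under RLE and 86.1% and 81.7% under total counts. With length offsets the reversed values were 0.33 (set 4) and 0.45 (set 2) for BRCA1, 0.86 for BRCA2 (set 4), 0.16 (set 4) and 0.56 (set 2) for BRIP1, and, outside the naming rule, 0.12 (set 4, no longer called) and 0.20 (set 2) for MDC1; other causes were not tested.

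Leaving out 1 library gave 4 to 4 higher and 6 to 8 lower genes in shSHCBP1_1 (6 without NC replicate 2 or shSHCBP1_1 replicate 3), 7 to 9 and 9 to 11 in shSHCBP1_2, 9 to 9 and 28 to 29 in set 4, 8 to 9 and 26 to 28 in set 2, 0 to 2 and 3 to 4 for set 2 against set 4, and 0 between the shSHCBP1 groups. Over all genes, leaving out 1 library gave 6.14% to 6.58% higher and 7.38% to 7.79% lower in shSHCBP1_1. These shares were 11.9% to 12.7% and 11.4% to 12.2% in shSHCBP1_2, and 32.8% to 33.8% and 36.4% to 37.3% in set 4. They were 33.6% to 35.1% and 37.6% to 39.3% in set 2. For set 2 against set 4 they were 1.08% to 2.71% and 2.34% to 4.09%. With the replicate number as a block, 5 genes rose and 10 fell in shSHCBP1_1 and 9 and 13 in shSHCBP1_2. In set 2 the block gave 9 and 26, and between the shSHCBP1 groups 0 and 0. Over all genes the block gave 10.2% higher and 11.2% lower in shSHCBP1_1, 16.8% and 16.4% in shSHCBP1_2, and 36.5% and 40.4% in set 2. The replicate numbers did not pair the libraries: 1 of 18 same-numbered pairs correlated over 0.1, and 4 of 12 libraries were closest to their own number. Set 4 has no numbers tied to labels and no blocked value. Depth limits FANCF most.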
